A study of Arabidopsis thaliana with 6 samples.

Results

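The miR398 family is read here from 4 mature sequences of 21 nt, one for each distinct arm of the loci MIR398a, MIR398b and MIR398c, out of 294 mature sequences in the deposited table. They were taken by name alone: every entry that lists one of the 3 loci, on either arm. Small RNA came from Arabidopsis thaliana seedlings in shaking liquid culture, whose age the labels do not give. All plants carried BRI1-Flag, a tagged copy of the plasma-membrane receptor of brassinosteroids under its native promoter, in the receptor mutant bri1-5, so no plants without the transgene or the mutation enter the comparison. The control group received a solvent for 90 min and the other group 1 µM epibrassinolide (epiBL, an active brassinosteroid) for 90 min, with 3 labelled biological replicates each. Seedlings are bulk tissue, in which fewer cells that make a miRNA and less of it per cell cannot be told apart.

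miR398 is known as a copper-economy miRNA. When copper is scarce, the transcription factor SPL7 binds short motifs upstream of several miRNA genes and raises their transcription, and the miRNAs then lower mRNAs of dispensable copper proteins. Targets of miR398 include copper/zinc superoxide dismutases, which remove superoxide with copper at the active site, and the chaperone that loads them. Its precursor hairpin is cut into a duplex of a 5p and a 3p strand, of which the 3p strand of miR398 is the guide that acts on targets. The 5p strand is usually degraded as the passenger.

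The 4 mature sequences are shown 5′ to 3′ with bases 2 to 8, the seed, in capitals, because their differences decide which reads were counted for which locus.
miR398a-5p: aAGGAGTGgcatgtgaacaca
miR398a-3p: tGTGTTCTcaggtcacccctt
miR398b/c-5p: aGGGTTGAtatgagaacacac
miR398b/c-3p: tGTGTTCTcaggtcacccctg

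The 3p sequences share their seed and 20 of 21 bases, and differ by G21T, where the letter before the position is that of miR398b/c-3p and positions run from 1 at the 5′ base. The 5p sequences do not share a seed. Shifted by 1 base they agree at 15 of 20 positions. MIR398b and MIR398c give identical sequences on both arms, so their reads cannot be assigned to one locus.

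On the TAIR10.1 assembly each sequence matched only within its annotated precursors, all on the plus strand. miR398a-5p lies at chr2:1040948-1040968 and miR398a-3p at chr2:1041012-1041032, in MIR398a (AT2G03445), outside protein-coding genes. miR398b/c-5p lies at chr5:4691033-4691053 in MIR398b (AT5G14545) and at chr5:4694705-4694725 in MIR398c (AT5G14565). miR398b/c-3p lies at chr5:4691107-4691127 and chr5:4694778-4694798. The MIR398b precursor is opposite a UTR of AT5G14550, a protein-coding gene on the minus strand, and MIR398c, 3556 bases further on, overlaps no protein-coding gene.

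The precursors of MIR398a and MIR398c are shown with both arms in capitals, to set the diverged 5p arms and the differing spacers beside each other.
MIR398a: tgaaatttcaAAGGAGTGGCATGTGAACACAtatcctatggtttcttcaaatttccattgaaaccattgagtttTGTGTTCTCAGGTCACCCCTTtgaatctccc
MIR398c: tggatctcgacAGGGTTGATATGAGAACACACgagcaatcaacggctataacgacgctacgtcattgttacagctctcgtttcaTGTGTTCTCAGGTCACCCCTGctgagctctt

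The annotated precursors are 105 nt (MIR398a), 116 nt (MIR398b) and 115 nt (MIR398c) long, with 43, 53 and 52 nt between the arms. In minimum free energy folds from ViennaRNA, 18, 18 and 17 bases of the 5p arm paired with the 3p arm. Dicer-like enzymes usually leave a 3′ overhang of 2 nt on each strand. In these folds, the annotated arms of MIR398a formed a duplex with overhangs of 0 nt, and those of MIR398b and MIR398c of 1 nt. The counts hold exact matches to the annotated sequence only, so reads of these hairpins with other ends are not in them.

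Target sites are shown to relate the single 3p difference to what the guide pairs with. mRNA was not measured, so they say nothing of target levels. Each site is the best match to miR398b/c-3p in the annotated mRNAs of the gene, allowing 1 bulged target base, with Watson-Crick paired bases in capitals.
CSD1: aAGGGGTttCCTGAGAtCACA
CSD2: tgcGGGTGACCTGgGAAaCAtA
CCS: CAttGGGaGACCTGgGAACACt
AT3G15640: aAGGtGTGACCTGAGAAtCACA

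CSD1 (AT1G08830) is the cytosolic copper/zinc superoxide dismutase, and 17 of the 21 guide bases paired in its 5′ UTR, at a site that spans an intron on chromosome 1 from 2827177 to 2827685. CSD2 (AT2G28190) is the chloroplast enzyme, and 16 bases paired in its coding sequence at chr2:12015572-12015593. In CCS (AT1G12520), the copper chaperone of these enzymes, 17 bases paired in the coding sequence at chr1:4267521-4267542 on the minus strand. AT3G15640, annotated as a rubredoxin-like superfamily protein, had 19 paired bases in its 5′ UTR at chr3:5299204-5299225. Counting a mismatch or bulge as 1 and a G:U pair as 0.5, of 27440 protein-coding genes 0.0729% held a site as good as that of CSD1 or of CSD2, 0.219% one as good as that of CCS and 0.0109% one as good as that of AT3G15640. The base opposite guide position 21 was A in CSD1 and AT3G15640, which pairs with the T of miR398a-3p and not with the G of miR398b/c-3p. It was C in CCS, which pairs with the G. In CSD2 it was T, which forms a G:U pair with the G and does not pair with the T of miR398a-3p.

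Counts of all mature sequences summed to between 2050074 (epiBL replicate 3) and 4482479 (control replicate 1) per library, and 3 counts in the shallowest library were 1.46 CPM, a limit that covers counting error only. Of the 294 sequences, 148 had enough counts to be tested, all 4 miR398 sequences among them. The test was edgeR's quasi-likelihood F test with Benjamini-Hochberg adjustment over the 148. Levels are normalised counts in CPM, scaled by TMM. They compare a sequence between libraries. Levels of different sequences of equal length are set side by side as read numbers, since ligation can favour some ends.

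The family was dominated by its guide strand. miR398b/c-3p ranked 4 among all sequences in each of the 6 libraries and held 99.6% ± 0.0362 (SD, n = 3) of miR398 counts in controls. With epiBL its share was 99.7% ± 0.00357 (SD, n = 3). miR398b/c-5p ranked 52 to 57, miR398a-5p 66 to 72 in controls and 84 to 90 with epiBL, and miR398a-3p 97 to 101. The order of read numbers was thus miR398b/c-3p, miR398b/c-5p, miR398a-5p and miR398a-3p in every library. No neighbouring pair overlapped in normalised reads, though ligation can shift such an order between sequences.

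After 90 min of epiBL, miR398a-5p was the 1 miR398 sequence that passed the test. It fell to 0.465 of its control level, and 0 members passed with a rise. The guide miR398b/c-3p had a fold of 0.986, and miR398b/c-5p and miR398a-3p had folds of 0.900 and 1.04, none past the test. Over all 148 miRNAs, 8.11% passed, 5.41% lower and 2.7% higher, which is the background for 1 call among 4 members. The 12 calls behind these shares became 5 when control replicate 2 was left out, and 5 when epiBL replicate 3 was. They became 7 on leaving out control replicate 3 and 25 on leaving out epiBL replicate 2.

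miR398a-5p, taken as the passenger strand, had 368, 313 and 244 raw counts in control replicates 1, 2 and 3, and 114, 135 and 67 in epiBL replicates 1, 2 and 3. Its normalised counts were 82.2, 73.2 and 59.2 CPM in controls and 32.3, 31.3 and 37.5 CPM with epiBL. All 3 epiBL libraries lay below all 3 controls, and the lowest control was control replicate 3. The log2 fold change was -1.11 (SE 0.15, 95% interval -1.43 to -0.78, edgeR adjusted p = 0.000236). The replicate coefficient of variation was 16.3% in controls, where counting alone would give 5.78%, and 9.80% with epiBL, where counting alone would give 10.2%. The spread with epiBL was therefore no larger than counting error. The call held in all 14 alternatives, with log2 fold changes from -1.23 to -0.99 and adjusted p of at most 0.00265.

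miR398a-3p, taken as the guide strand of the same hairpin, had 83, 79 and 82 raw counts in controls and 72, 79 and 37 with epiBL. Normalised, it stood at 18.5, 18.5 and 19.9 CPM in controls and 20.4, 18.3 and 20.7 CPM with epiBL. The groups overlapped. Its log2 fold change was 0.05 (SE 0.19, 95% interval -0.36 to 0.46), so a change as large as that of miR398a-5p lies outside its interval. These reads were 0.0287%, 0.0263% and 0.0290% of those of miR398b/c-3p in the controls and 0.0297%, 0.0274% and 0.0319% with epiBL. How many of them are reads of miR398b/c-3p with a changed last base was not tested.

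miR398b/c-5p, the passenger strand of MIR398b and MIR398c, had normalised counts of 173, 159 and 171 CPM in controls and 158, 156 and 138 CPM with epiBL. The groups did not overlap, though control replicate 2, at 159.4 CPM, lay close to epiBL replicate 1, at 157.7 CPM, and the log2 fold change of -0.15 (SE 0.10, 95% interval -0.38 to 0.07, adjusted p = 0.379) did not pass. Libraries of the 2 groups were separate in 27.7% of the 148 miRNAs, and in miR398a-5p and miR398b/c-5p among the 4 members.

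miR398b/c-3p, the guide that accounts for nearly all miR398 reads, had 288862, 300711 and 282614 raw counts in controls and 242496, 288126 and 116172 with epiBL. Scaled, it stood at 64556, 70288 and 68529 CPM in controls and at 68640, 66862 and 64946 CPM with epiBL. The epiBL values lay inside the range of the controls. The log2 fold change was -0.02 (SE 0.10, 95% interval -0.24 to 0.20), and its sign was positive with RLE factors, in DESeq2 and without control replicate 2, control replicate 3 or epiBL replicate 3. Counting error was 0.186% in controls, far under the replicate coefficient of variation of 4.33%, so depth does not limit this sequence.

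**Figure D1:**
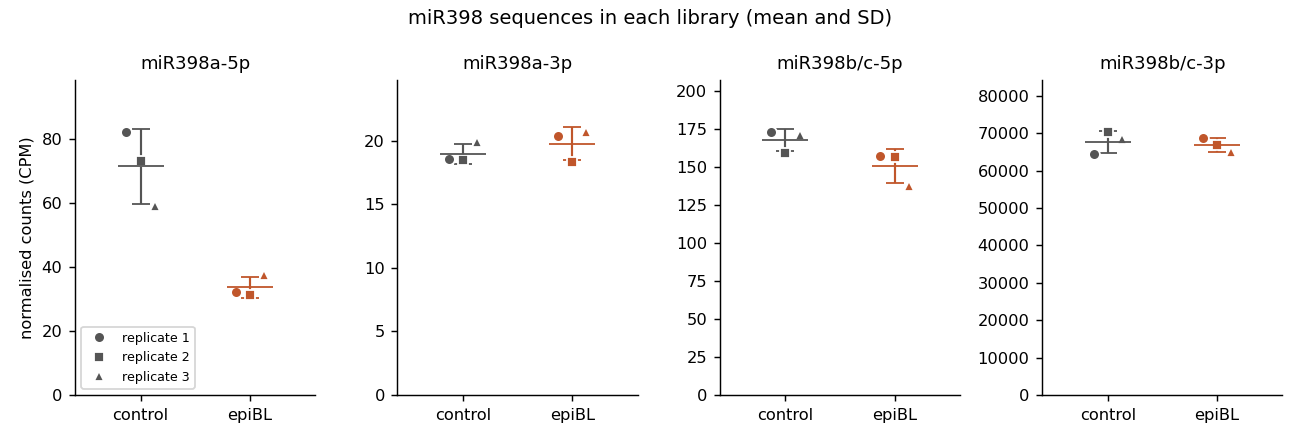
Normalised counts (CPM, linear axes from 0) of the 4 miR398 sequences in each of 6 libraries; symbols are replicates, bars the mean and SD of 3 libraries. For miR398a-5p the groups are far apart, with controls at 59.2 CPM or more and epiBL libraries at 37.5 CPM or less.

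Summed, miR398 took 7.16% ± 0.656 (SD, n = 3) of all counts in controls and 6.41% ± 0.678 (SD, n = 3) in epiBL libraries, from 5.68% in epiBL replicate 3 to 7.78% in control replicate 2, with overlapping groups. The summed normalised level was 68050 ± 2924 CPM (SD, n = 3) in controls and 67020 ± 1854 CPM (SD, n = 3) in epiBL libraries. Within the family the share of miR398a-5p was 0.106% ± 0.0205 (SD, n = 3) in controls and 0.0504% ± 0.00618 (SD, n = 3) in epiBL libraries.

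Ratios of 2 sequences within a library need no scaling between libraries, and were used to ask whether members differed from each other in response. At MIR398a, reads of the 5p arm were 443%, 396% and 298% of those of the 3p arm in controls and 158%, 171% and 181% with epiBL. Reads counted as 5p outnumbered those counted as 3p in every library, and the excess was smaller in every epiBL library than in any control. The names guide and passenger are those of the family, and the counts at MIR398a go the other way. The 3p reads differ from miR398b/c-3p by 1 base, and how many are changed reads of it was not tested. The ratio may therefore not be that of the MIR398a arms alone. The log2 ratio went from 1.90 to 0.76, a difference of -1.14 (SE 0.19, 95% interval -1.56 to -0.71, limma adjusted p = 0.00833). It was 1 of 45 arm pairs to pass (2.22%), and had the smallest p of the 45. Without epiBL replicate 2 the adjusted p was 0.0654, with a difference of the same size (-1.14). Over all alternatives run for ratios the difference ranged from -1.30 to -1.01.

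At MIR398b and MIR398c the arms stood in the opposite proportion. The 5p arm had 0.268%, 0.227% and 0.250% of the reads of the 3p arm in controls, and 0.230%, 0.234% and 0.212% with epiBL. The groups overlapped, and the difference in log2 ratio was -0.14 (SE 0.16, 95% interval -0.49 to 0.21, limma adjusted p = 0.615). 

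The 5p strands of the family were then set against each other, as 1 of 43 pairs of sequences of the same family and arm. miR398a-5p had 47.6%, 45.9% and 34.5% of the reads of miR398b/c-5p in controls and 20.5%, 20.03% and 27.2% with epiBL. All epiBL values lay below all control values. The log2 ratio differed by -0.91 (SE 0.18, 95% interval -1.36 to -0.46, limma adjusted p = 0.0227), so miR398a-5p was lowered relative to miR398b/c-5p. Of the 43 pairs, 23.3% passed, and pairs that share a sequence are not independent. The call was lost without control replicate 1 (adjusted p = 0.0843), epiBL replicate 1 (0.0609) or epiBL replicate 2 (0.0725), with differences of -0.83, -0.85 and -0.83. A replicate block also removed the call, at a difference of -0.91 (limma adjusted p = 0.0560). The 3p strands had a difference of 0.09 (SE 0.10, 95% interval -0.15 to 0.33, limma adjusted p = 0.505).

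**Figure D2:**
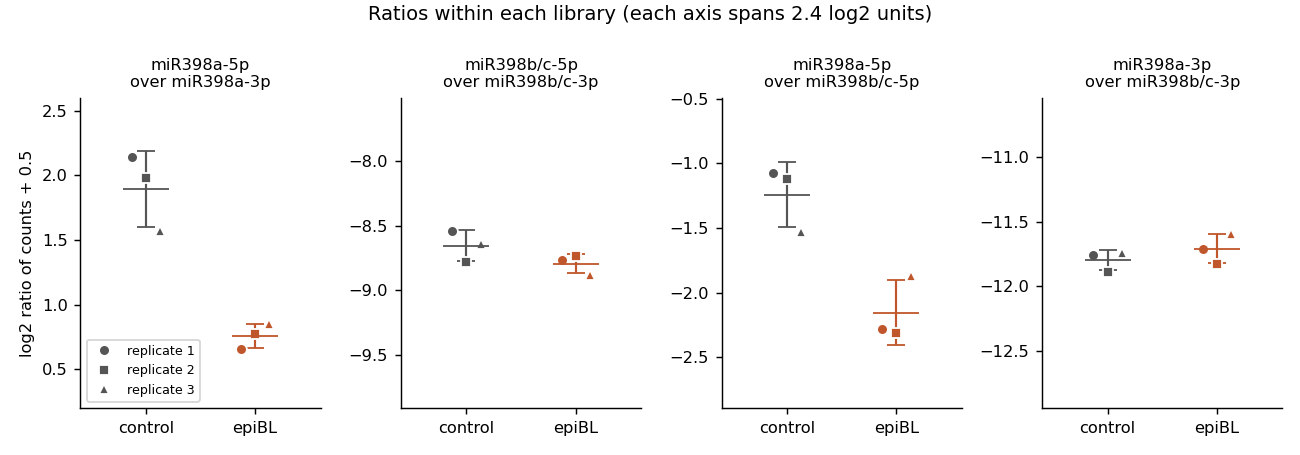
Log2 ratios of counts plus 0.5 within each library for the arm pairs and the paralog pairs of miR398; symbols are replicates, bars the mean and SD of 3 libraries, and points are drawn on a log2 scale. Both ratios with miR398a-5p on top are lower in all epiBL libraries (mean 0.76 against 1.90, and -2.16 against -1.24), and the other ratios overlap between groups.

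The other miRNAs known to be raised by copper shortage were listed as miR397, miR408 and miR857, which act on laccases and, for miR408, also on the copper protein plantacyanin. All 5 of their sequences could be tested. Of them 2 fell, 0 rose and 3 did not pass, against 5.41% of all miRNAs lower. The median log2 fold change of the 5 was -0.39, that of the 4 miR398 sequences -0.09 and that of all 148 tested 0.00. 

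miR397a-5p fell from 109, 113 and 115 CPM in controls to 66.8, 69.8 and 64.9 CPM with epiBL (log2 fold change -0.74, SE 0.11, edgeR adjusted p = 0.000357). miR408-5p, the scarcer strand of MIR408, had 287, 384 and 380 CPM in controls and 271, 249 and 220 CPM with epiBL (-0.50, SE 0.13, adjusted p = 0.0270). The call of miR408-5p was lost without control replicate 2 (adjusted p = 0.0723), control replicate 3 (0.0743) or epiBL replicate 3 (0.123), which left 1 of the 5. 

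The other 3 sequences of the list did not pass. miR397b-5p, at 5438 ± 147 CPM in controls and 4721 ± 366 CPM with epiBL, had a log2 fold change of -0.20 (SE 0.10). miR408-3p, the guide, stood at 4607 ± 271 and 4021 ± 135 CPM and also had -0.20 (SE 0.10), and miR857-3p stood at 187 ± 11.8 and 144 ± 21.8 CPM and had -0.39 (SE 0.12; SD, n = 3 each throughout). Their edgeR adjusted p was 0.208, 0.208 and 0.0599. miR857-3p passed without epiBL replicate 2 (adjusted p = 0.0213), with total counts as the scale (0.0147) and with no filter on low counts (0.0435). The groups were separate in all 5 sequences of the list, beside 27.7% of the 148 miRNAs. Whether miR398b/c-3p, the most abundant of the copper-linked guides, differed from these 5 in its response was not tested.

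**Figure D3:**
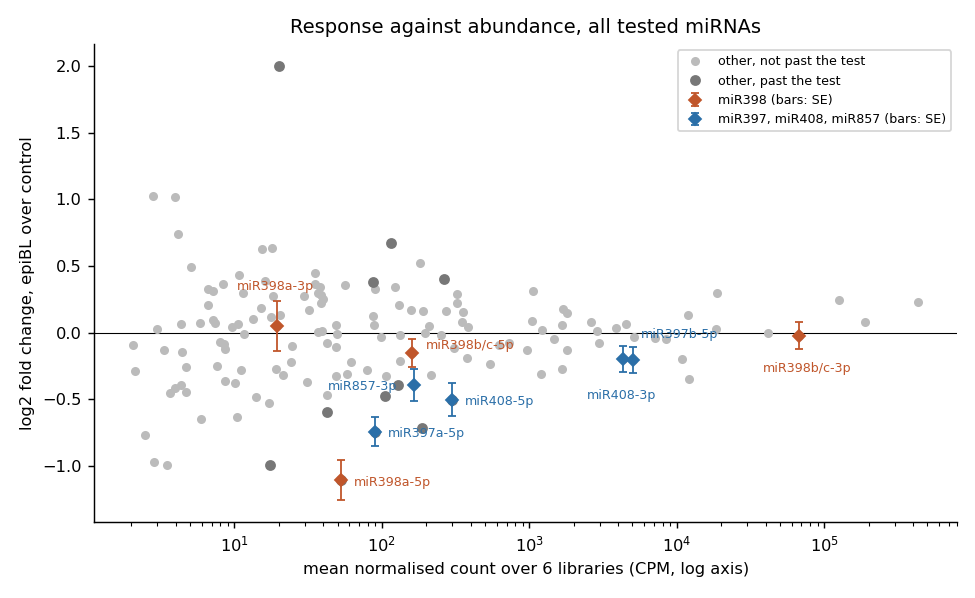
Log2 fold change (epiBL over control) against mean normalised count (CPM, log axis) of the 148 tested miRNAs; orange and blue diamonds with SE bars are miR398 and the miR397, miR408 and miR857 sequences, dark points others past the test. miR398a-5p, at -1.11, lies lowest of all points, and miR398b/c-3p, the member with the highest count, lies at -0.02.

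By the pattern over the 6 libraries (Pearson r of log2 normalised CPM plus 1, a description with no p), the sequences most like miR398a-5p were miR399a-3p (r = 0.953), miR397a-5p (0.928) and miR841b-5p (0.924). Those most like miR398b/c-5p were miR167d-5p (0.936), miR168b-3p (0.931) and miR158a-5p (0.923). Those most like miR398b/c-3p were miR157c-3p (0.959), miR157a/b/c-5p (0.879) and miR773a-3p (0.858), and those most like miR398a-3p were miR869-3p (0.943), miR156b-3p (0.883) and miR2111a-3p (0.853). The points of each correlation share their libraries and scaling, and span both groups, so r also holds any difference between groups. Each r is among the highest 3 of all tested sequences outside the family, over 6 libraries, so selection alone favours high values. The log2 fold changes of miR399a-3p, miR397a-5p and miR841b-5p were -0.27, -0.74 and -0.72. miR773a-3p had a mean of only 4.40 CPM.

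The loci also differ in what lies upstream of them. SPL7 recognises a core of the letters GTAC, which reads the same on both strands. In the 500 bases before the annotated precursor, MIR398b held 7 such cores and MIR398c 8, and MIR398a held 0. Over the 326 annotated miRNA precursors, 59.8% held at least 1, the median being 1, and 0.9% and 0.6% held as many as MIR398b and MIR398c. MIR397a and MIR397b held 6 each, MIR408 10 and MIR857 4. The precursor start is not the transcription start, and a match is not evidence of binding. The bases are those of the reference assembly, which may differ from those of these plants.

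The 250 bases before MIR398a and before MIR398c are shown, plus strand of TAIR10.1, with the cores in capitals, to let the presence and absence be read. They are chr2:1040688-1040937 and chr5:4694444-4694693.
MIR398a: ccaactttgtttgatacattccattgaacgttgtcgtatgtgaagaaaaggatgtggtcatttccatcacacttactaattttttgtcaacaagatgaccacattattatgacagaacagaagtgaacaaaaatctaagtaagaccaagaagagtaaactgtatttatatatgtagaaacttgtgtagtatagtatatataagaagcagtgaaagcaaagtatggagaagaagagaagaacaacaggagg
MIR398c: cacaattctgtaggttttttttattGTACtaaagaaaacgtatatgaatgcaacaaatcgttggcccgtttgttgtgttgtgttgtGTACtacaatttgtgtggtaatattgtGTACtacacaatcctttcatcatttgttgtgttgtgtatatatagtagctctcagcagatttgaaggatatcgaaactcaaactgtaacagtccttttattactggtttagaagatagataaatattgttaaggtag

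Within this window MIR398c held 3 cores, with 133 bases between the nearest and the precursor, and 106 bases lay between the nearest core of MIR398b and its precursor.

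**Figure D4:**
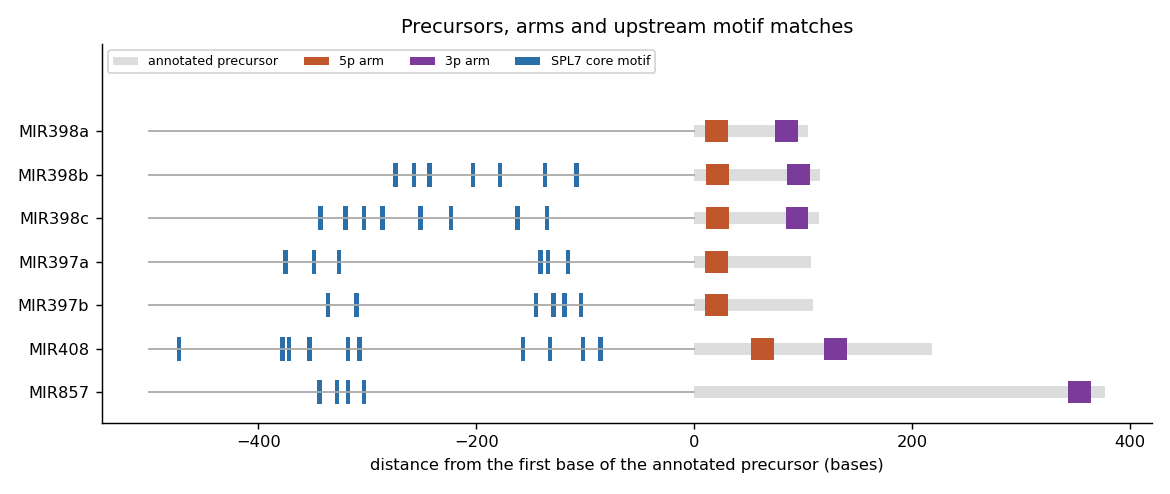
Precursors (grey) with their annotated 5p and 3p arms and the SPL7 core matches (blue ticks) in the 500 bases upstream, by distance in bases from the first base of the annotated precursor. MIR398b has 7 ticks, MIR398c 8 and MIR398a 0, and the copper-linked precursors below them have 4 to 10.

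The authors' deposited table gives its own comparison of the same libraries. In the authors' deposited table the log2 fold changes were -1.09 for miR398a-5p, 0.06 for miR398a-3p, -0.14 for miR398b/c-5p and -0.01 for miR398b/c-3p. Its unadjusted p was 1.09e-10 for miR398a-5p in the authors' deposited table and at least 0.218 for the other members.

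**Figure D5:**
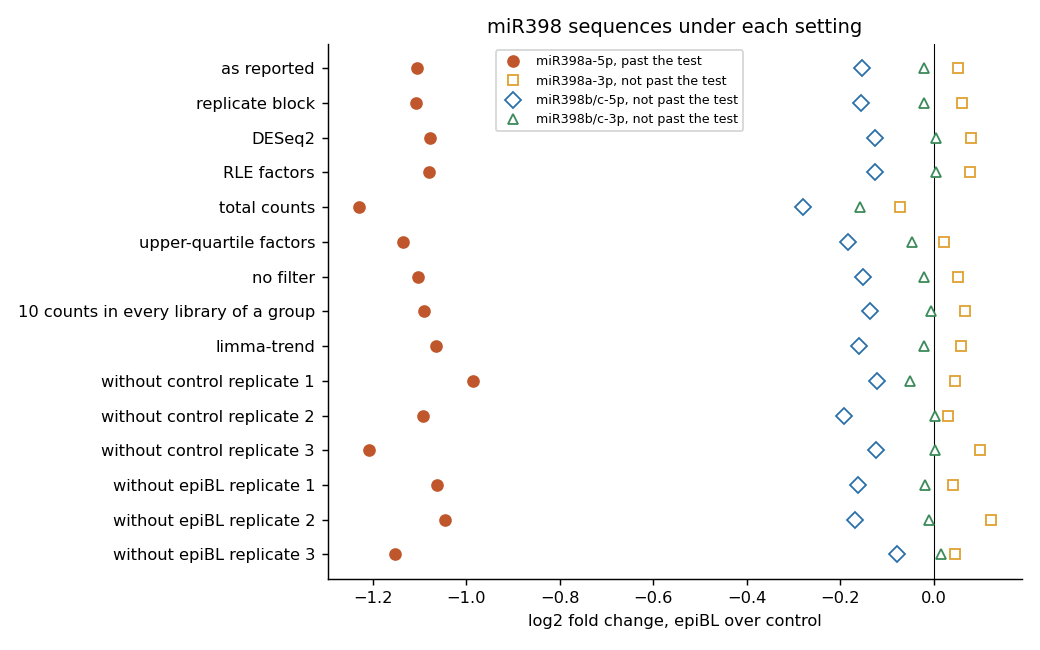
Log2 fold change (epiBL over control) of the 4 miR398 sequences as reported and under 14 alternatives; filled symbols passed an adjusted p under 0.05 and open symbols did not. miR398a-5p stays between -1.23 and -0.99 and passes throughout, and the other 3 do not pass in any.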

How the data were processed

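TruSeq small RNA libraries were made from seedling RNA and read on an Illumina instrument, as the labels' protocols state. Per the file headers, the deposited counts are raw numbers of reads identical to annotated mature miRNAs, so end variants are not counted and identical loci share an entry. The authors' deposited table also holds an unadjusted p-value of an EDGE test and a fold change with its log2 value. The header of that test reads 0 min against 90 min, and the labels, followed here, treat both groups for 90 min. TAIR10 is the genome build in the submitters' processing notes, and the aligner and trimming were not given in the sources used here. PCR copies count as reads, and an exact-match count moves with any sequencing error.

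Counts were filtered with edgeR's filterByExpr (minimum count 10, total 15), scaled by TMM and tested by robust quasi-likelihood F tests over 148 miRNAs at an adjusted p under 0.05 (R 4.3.3, edgeR 4.0.16, biological coefficient of variation 10.9%). Standard errors were taken as the size of the fitted change divided by the root of F. Arm and paralog ratios used limma 3.58.1 on counts plus 0.5. DESeq2 1.42.0, other scalings and filters, limma-trend, a replicate block and leaving out each library were alternatives. The procedures were tested on simulated counts. Every pair of libraries differed by more than sampling noise. The labels call the replicates biological without naming separate cultures. The p-values reflect only the spread among them, pooled in part over the tested sequences. Members, lists and tests were chosen with earlier results of these data known. Named sequences are all of miR398, miR397, miR408 and miR857, and the 3 most alike per member. Sequences and coordinates, counted from 1, are from the table and from RefSeq TAIR10.1, matched exactly. Precursors were folded with ViennaRNA 2.7.2. The target search, folds and motif counts were added after the values were seen.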

Additional observations from a re-analysis of the deposited data

How the results depend on the processing

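The fall of miR398a-5p passed in all 14 alternatives, and the number of miR398 sequences past the test was 1 in each. Under total counts the median of all miRNAs moved to -0.13, and miR398a-3p turned to -0.0711. miR398b/c-3p, never past the test, was -0.158 under total counts and 0.0049 in DESeq2 and with RLE factors. With 1 library left out it ranged from -0.0499 to 0.0166. All calls numbered 22 with a replicate block, the original 12 among them, and 5 to 25 with 1 library left out. The calls in the list of miR397, miR408 and miR857 numbered 1 to 3 with 1 library left out. The arm ratio at MIR398a ranged from -1.30 to -1.01 with 1 library left out. The 5p paralog ratio ranged from -1.06 to -0.83, and with the replicate block it was -0.91 and no longer passed (adjusted p = 0.0560). Correlations of deviations between same-numbered libraries were -0.0940, 0.139 and -0.108, and 2 of 6 libraries were most like their own number. With 3 libraries per group, these values cannot decide whether same-numbered libraries are paired. With the most abundant miRNA left out of the total, the miR398 share was 12.3% in controls and 11.5% with epiBL, by construction. The cause of the other changes was not tested. Among the single copper-linked sequences outside miR398, 63 values stayed on their side of the threshold, 3 lost the call (miR408-5p) and 4 gained it (miR857-3p, among them the replicate block at an adjusted p of 0.0214). Depth limits miR398a-3p most, with 37 counts in epiBL replicate 3.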

Other observations

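Pairs of listed sequences 1 base apart were set beside the reads counted as miR398a-3p. Both sequences of a pair are annotated miRNAs, so the ratios mix expression with any changed reads and set no bound on those. There were 27 such pairs with reads, and in these the rarer sequence had from 0.0284% to 83.3% of the counts of the commoner one. miR398a-3p against miR398b/c-3p was the lowest, with 432 counts against 1518981 over the 6 libraries. The next were miR156j-5p (0.0347% of miR156a/b/c/d/e/f-5p) and miR159c-3p (0.0569% of miR159b-3p). The copper-linked pair miR397a-5p and miR397b-5p also differs by 1 base (T13G, miR397b-5p first), and miR397a-5p had 2.07% of the counts of miR397b-5p in controls and 1.43% with epiBL. Its log2 ratio to miR397b-5p differed by -0.54 between groups (SE 0.09, limma adjusted p = 0.00941).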
